A study of Oryctolagus cuniculus with 20 samples.

Results

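The 5 untreated tricuspid valves of a rabbit study of 20 valves are described here: which genes held most of their reads, how the reads divided between mitochondrial, muscle, matrix and ribosomal genes, and which genes differed most from valve to valve. The members are the valves labelled Control 1 to 5, and all 5 were used. The tricuspid valve separates the right atrium from the right ventricle. Its leaflets are a layered extracellular matrix of fibrillar collagen, proteoglycans and elastic fibres, made and kept up by valvular interstitial cells and covered by endothelium. Cardiac muscle borders the leaflet at its hinge and can run into its base, so that RNA of a dissected valve may come from leaflet and muscle alike. Muscle RNA is rich in sarcomere transcripts and in transcripts of the mitochondrial genome, which encodes core subunits of the respiratory chain.

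Female New Zealand white rabbits, 8 weeks old when the study began, drank water without drug (control) or water with a drug for 16 weeks. The daily doses per kg on the sample labels were 80 mg of serotonin, 0.5 mg of pergolide and 20 mg of dexfenfluramine; for dexfenfluramine the paper's methods have 20 mg too, but its results have 10 mg. Valves of 5 rabbits from each of the 4 groups were sequenced. Serotonin acts on receptors of valve cells, pergolide is an agonist of dopamine and serotonin receptors, and dexfenfluramine releases serotonin and gives rise to a metabolite that acts on the same receptors. Total RNA of the tricuspid valves was depleted of ribosomal RNA and sequenced, and the values are the authors' counts of reads per Ensembl gene.

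The control valves had 4206516, 4492621, 4573978, 5831376 and 5510128 counted reads, in the order Control 1 to 5. Of 23669 genes, 12459 had a read in at least 1 control valve, 9471 in every control valve, and 7062 had at least 10 reads in every control valve. Only the 3521 genes to which the study's list of changed genes gives a symbol can be placed in a class by name, and these held 38.2, 40.8, 45.4, 36.8 and 37.6% of the reads. Class shares therefore cover named members only and are lower bounds for each class, and the named members are genes that the study selected for change in these valves. Gene lengths were not used here, and a longer transcript gives more reads. Shares of reads thus say how the sequencing was spent, and do not rank genes by number of molecules.

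Control 3 stood apart from the other control valves. It had the most genes with at least 10 reads (8429, against 7441 to 8124 in the others), the smallest shares of mitochondrial and muscle reads and the largest share of matrix reads. Control 4 lay at the opposite end for the mitochondrial and matrix shares. The main class shares, the first component and the pairs of COL1A2 with COX1, MYH7 and the leading gene are given with and without Control 3.

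ENSOCUG00000029084, a gene with no symbol here, took more reads than all 12 named classes together. Its share was 42.0% in Control 1, 40.4% in Control 2, 28.5% in Control 3, 48.1% in Control 4 and 44.3% in Control 5, with a mean of 40.7% ± 7.39 (SD, n = 5), or 43.7% without Control 3. Control 3 was the lowest valve by more than 10 percentage points. Another gene without a symbol, ENSOCUG00000029082, held 6.94, 3.12, 2.32, 3.88 and 3.00% in the same order and was highest in Control 1. Neither gene is given a name by the sources used here, and no function is assigned to them. Both identifiers come shortly before those of the named mitochondrial genes, which run from ENSOCUG00000029086 (ND1) to ENSOCUG00000029115 (CYTB). Whether they belong to the mitochondrial genome was not tested. If they do, that genome held far more of the reads than the class share given below.

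The most abundant gene with a symbol was TTN, which encodes the giant sarcomere protein titin, with 5.70, 5.94, 4.54, 6.45 and 5.35% of the reads of Control 1 to 5. TTN is among the longest transcripts known, and its rank is not comparable with that of short genes. MYH7, the slow (β) cardiac myosin heavy chain, held 2.56, 1.83, 0.973, 1.45 and 1.49%, and its lowest value, in Control 3, was well below the other valves. Reads from the closely similar MYH6 could be split with MYH7 by the authors' counting, so that the MYH7 value is uncertain to that extent. TNNT2, cardiac troponin T of the thin filament, held 0.351, 0.231, 0.183, 0.208 and 0.182%.

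Of the 20 genes with the largest mean share, 9 had the symbol of a gene of the mitochondrial genome, and the genome of those without a symbol is not known here. COX1, the catalytic subunit of cytochrome c oxidase, held 2.76, 2.93, 1.84, 3.19 and 2.84% of the reads. The other cytochrome c oxidase subunits of that genome followed, COX2 with 1.54% ± 0.298 and COX3 with 0.914% ± 0.194 (SD, n = 5). Cytochrome b of complex III, CYTB, held 1.08% ± 0.218, and the complex I subunits ND5, ND4 and ND2 held 0.919% ± 0.215, 0.557% ± 0.103 and 0.270% ± 0.0494 (SD, n = 5). The subunits of ATP synthase, ATP6 and ATP8, held 0.476% ± 0.101 and 0.389% ± 0.0878 (SD, n = 5), and since these genes overlap, the division of reads between them is uncertain. Control 3 had the lowest share for each of these genes except COX2, which was lowest in Control 5, and ND2, which was lowest in Control 5.

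The rest of the 20 were structural genes of the cytoskeleton and genes without a symbol. SPTBN1, a β-spectrin of the membrane skeleton, held 0.362, 0.404, 0.633, 0.291 and 0.362% of the reads. DST, which encodes the cytoskeletal linker dystonin, held 0.216, 0.257, 0.376, 0.203 and 0.264%, and VIM, the intermediate filament vimentin of mesenchymal cells, held 0.238, 0.230, 0.394, 0.103 and 0.206%. For these genes Control 3 was highest and Control 4 lowest. ENSOCUG00000024537, ENSOCUG00000010104 and ENSOCUG00000009017 have no symbol here and held 0.632% ± 0.0498, 0.395% ± 0.223 and 0.249% ± 0.143 (SD, n = 5).

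**Figure D1:**
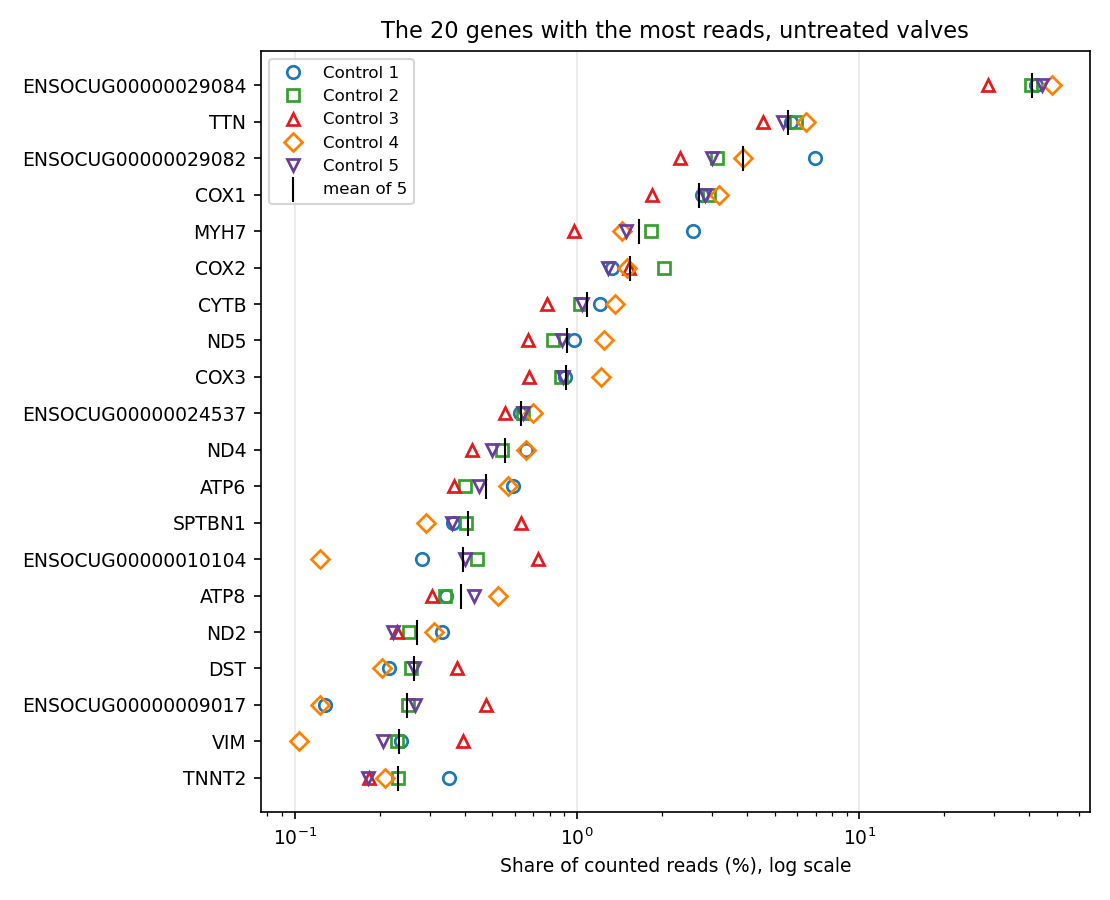
Share of counted reads, in percent on a log scale, for the 20 genes with the largest mean share in the untreated valves; each symbol is a valve and the bar is the mean of 5. The leading gene stands between 28.5 and 48.1%, and the red triangle of Control 3 is farthest left for TTN, MYH7 and COX1 and farthest right for SPTBN1, DST and VIM.

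Few genes made up most of each library. In Control 1 to 5, 50% of the reads came from 3, 4, 37, 2 and 3 genes, and 90% came from 1351, 1744, 2549, 1110 and 1655 genes. With the leading gene set aside, 50% of the remaining reads came from 35, 102, 291, 30 and 112 genes. Control 3 was thus the valve whose reads were spread over the most genes on each of these measures, and Control 4 the valve with the fewest.

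By class, the shares below are those of named genes. The leading gene and other genes without a symbol are in no class, so that the classes are not ranked against each other. The 13 protein genes of the mitochondrial genome held 9.62, 9.71, 7.25, 11.2 and 9.004% of the reads, a mean of 9.36% ± 1.43 (SD, n = 5). The 57 named cardiac and skeletal muscle genes held 11.02, 10.4, 7.49, 10.5 and 9.17%, a mean of 9.72% ± 1.42 (SD, n = 5). In both classes Control 3 was lowest, and without it the means were 9.88% and 10.3%. TTN alone held 5.59% ± 0.715 (SD, n = 5), the larger part of what the muscle genes held.

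The 69 named genes of the extracellular matrix, in 4 classes, held 0.961, 1.26, 2.34, 0.695 and 1.15% of the reads, a mean of 1.28% ± 0.631 (SD, n = 5), or 1.02% without Control 3. The share in Control 3 was over 3 times that in Control 4. The ratio was smaller on other scales. Of reads outside the leading gene, the shares were 3.28% in Control 3 and 1.34% in Control 4. After the TMM scaling explained below, the sums were 18786 and 11919 CPM. Matrix glycoproteins and elastic fibre genes held 0.510% ± 0.266, proteoglycans and link proteins 0.393% ± 0.185, collagens 0.297% ± 0.150 and genes of matrix turnover 0.0825% ± 0.0348 (SD, n = 5). Without Control 3 these means were 0.398, 0.318, 0.233 and 0.0680%. For every matrix class Control 3 was the highest valve.

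Named genes of cytosolic ribosomal proteins (53 genes) held 0.511, 0.601, 0.905, 0.381 and 0.551% of the reads, a mean of 0.590% ± 0.194 (SD, n = 5), or 0.511% without Control 3. Translation factors (24 genes) held 0.458% ± 0.146, nuclear genes of oxidative phosphorylation (33 genes) 0.270% ± 0.0262, small nuclear and nucleolar RNAs (52 genes) 0.0383% ± 0.0102, smooth muscle and pericyte genes (5 genes) 0.0303% ± 0.0100 and a single 5S ribosomal RNA gene 0.000156% ± 6.4e-05 (SD, n = 5). The nuclear oxidative phosphorylation genes were lowest in Control 3 (0.234%), as the mitochondrial genome was, while ribosomal proteins and translation factors were highest there. Genes with a symbol in no class held 18.04% ± 4.99, and genes without a symbol other than the leading gene 19.5% ± 4.04 (SD, n = 5). The classes with many small or repeated gene copies, ribosomal proteins above all, are uncertain, because reads that match a processed copy elsewhere in the genome may have been left out or assigned to it.

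**Figure D2:**
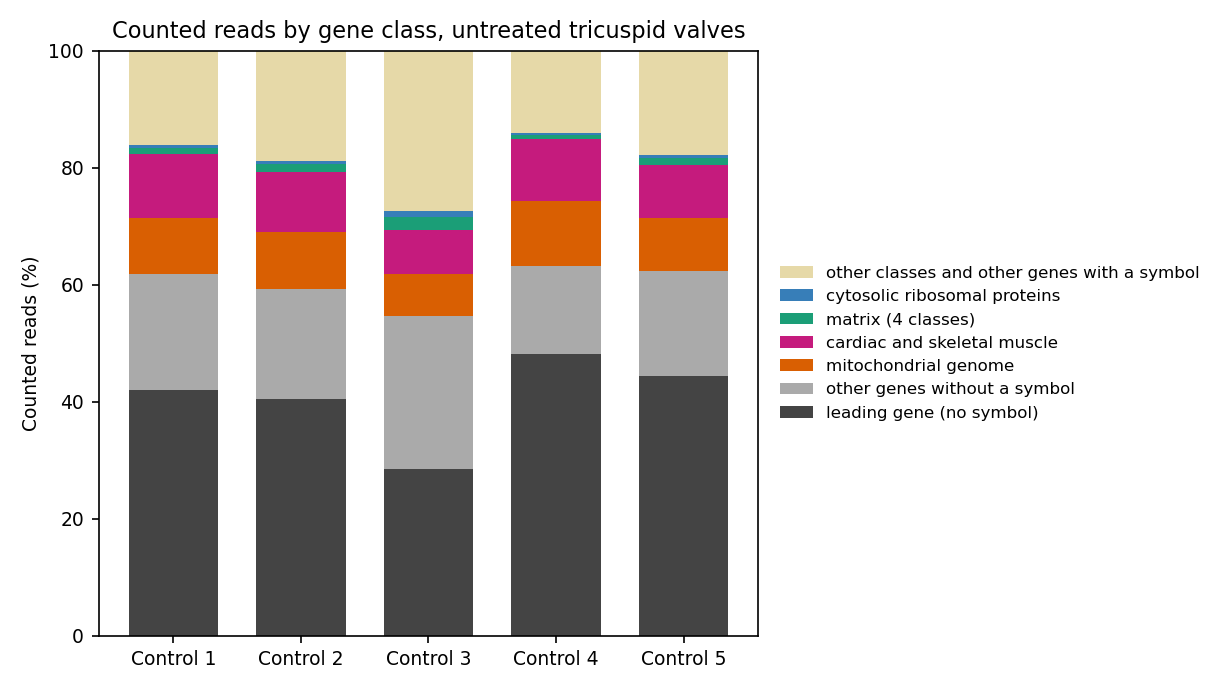
Share of counted reads, in percent, by gene class in each untreated valve; each bar is a valve and sums to all counted reads. The dark leading gene is smallest in Control 3 (28.5%) and largest in Control 4 (48.1%), and the green matrix band is widest in Control 3 (2.34%).

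Within the matrix classes a few genes carried most reads. Levels from here on are CPM, the count relative to a fixed large total, after TMM normalization, which scales libraries so that most genes keep the same level. VCAN, the large proteoglycan versican, had 2663, 2904, 3027, 1209 and 2592 CPM in Control 1 to 5, and Control 4 was far below the others. DCN, the small collagen-binding proteoglycan decorin, had 1711, 1319, 1810, 1406 and 1238 CPM, and ASPN, the related asporin, 168 ± 61.1 CPM (SD, n = 5). VCAN and DCN were above each collagen gene in mean reads, which is not a comparison per length.

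Among collagens, COL3A1 of type III fibrils had 783, 1154, 1458, 922 and 897 CPM. COL1A2, a chain of type I collagen, had 469, 563, 769, 584 and 482 CPM, and COL14A1, a fibril-associated collagen, had 611 ± 68.3 CPM (SD, n = 5). Control 3 was the highest valve for COL3A1 and COL1A2. MFAP5 and FBN1, both components of elastic microfibrils, had 1049 ± 356 and 897 ± 169 CPM, and HMCN1, the basement membrane protein hemicentin, had 650 ± 202 CPM (SD, n = 5). MGP, the matrix Gla protein that restrains calcification, had 816, 420, 508, 474 and 498 CPM and was highest in Control 1. HAPLN1, the link protein that ties proteoglycans to hyaluronan, had 25.6, 64.1, 49.9, 16.2 and 39.8 CPM.

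Turnover genes were lower in reads. MMP2, a gelatinase, had 267 ± 56.7 CPM, the protease ADAMTS1 183 ± 22.9 CPM and PLOD2, which hydroxylates collagen lysines, 81.4 ± 6.90 CPM (SD, n = 5). The spread of PLOD2 was small, with values from 73.2 to 89.0 CPM.

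Among ribosomal proteins, RPL4 had 1073 ± 131 CPM and RPL37 527 ± 88.3 CPM (SD, n = 5). RPL11 had 266, 226, 248, 188 and 239 CPM, with Control 4 lowest. The elongation factor EEF1A1 had 1755 ± 209 CPM, the initiation factors EIF4G2 and EIF3A 770 ± 31.2 and 376.5 ± 59.6 CPM (SD, n = 5). In contrast to the sarcomere genes, the highest and lowest valves differed by a factor of 1.3 for EEF1A1 and 1.1 for EIF4G2. SCARNA7, SNORD81 and SNORD15, small RNAs that guide modification of other RNAs, had 158 ± 19.9, 33.8 ± 13.8 and 33.7 ± 5.42 CPM (SD, n = 5), and the gene 5S_rRNA had 1.97 ± 0.90 CPM (SD, n = 5).

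The nuclear genes of the respiratory chain with the most reads were ATP5B and ATP5F1 of ATP synthase, with 588 ± 222 and 346 ± 94.5 CPM, and NDUFB9 of complex I, with 229 ± 121 CPM (SD, n = 5). NDUFB9 had 392, 146, 81.1, 279 and 248 CPM. Control 3 was the lowest valve for these genes, as it was for all 33 tested genes of the class. Of the smooth muscle and pericyte genes, CALD1 had 256 ± 35.3, MYH11 46.4 ± 19.8 and PDGFRB, the receptor that marks pericytes, 38.9 ± 2.36 CPM (SD, n = 5).

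The labelled tissue was checked against markers of cell types. Of 14 valvular interstitial markers, 11 had a symbol and all 11 had reads, and their summed level was 9992, 9538, 11198, 6729 and 8584 CPM in Control 1 to 5, with VIM the most abundant. POSTN, PDGFRA and PRELP could not be matched to a symbol. Of 16 cardiomyocyte markers, 10 had a symbol and all had reads, with a summed level of 146432, 109492, 50526, 155562 and 100307 CPM, most of it TTN. The libraries labelled as valve thus held interstitial markers in every valve, and larger sums of cardiomyocyte markers in every valve, although these sums are not comparable per length. TNNI3, MYH6, MYL3, MYL4, MYL7 and NPPA were not matched.

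The cardiomyocyte markers other than TTN, MYH7 and TNNT2 were lowest in the same valve. RYR2, the calcium release channel of the sarcoplasmic reticulum, had 3638, 2866, 1171, 4086 and 3006 CPM, and PLN, the regulator of its calcium pump, 2474, 2344, 1019, 3472 and 2238 CPM. ACTC1, ACTN2, MYL2 and MYBPC3 of the sarcomere had means of 1722, 1731, 1650 and 822 CPM. Each of the 10 was lowest in Control 3, by a factor of 3.0 (TTN) to 6.7 (TNNC1) against its highest valve. In bulk RNA, fewer muscle cells and less of these RNAs per muscle cell cannot be told apart.

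Markers of the other cell types had far fewer reads. Of 12 endothelial markers 4 had a symbol (PECAM1, EMCN, CD34 and PTPRB), with a summed level of 520, 629, 639.5, 351 and 618 CPM, and PTPRB was the most abundant. Of 10 Schwann and nerve markers 6 had a symbol, with 514, 450, 424, 491 and 402 CPM, most of it from the adhesion molecule NCAM1 (346 ± 19.5 CPM, SD, n = 5), which cardiac cells can express as well. The endothelial sum was lowest in Control 4, as PECAM1, EMCN and PTPRB were, while CD34 was lowest in Control 1 (60.2 CPM, against 63.2 CPM in Control 4).

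Smooth muscle markers (3 of 5 with a symbol) summed to 148, 99.6, 60.6, 178 and 107 CPM, with MYOCD, which cardiac muscle also expresses, the most abundant and TAGLN at only 2.09 ± 0.687 CPM (SD, n = 5). Macrophage markers (7 of 12) summed to 92.6, 81.7, 100.05, 65.5 and 98.4 CPM and were led by STAB1. Adipocyte markers (9 of 12) summed to 81.4, 53.3, 44.9, 123 and 47.1 CPM and were led by ADIPOQ, with SCD at 0 in Control 2 and Control 4. The smooth muscle and adipocyte sums were highest in Control 4 and lowest in Control 3, in the same order at both ends as the cardiomyocyte sum. Lymphocytes, chondrocytes and melanocytes were each represented by 1 marker with a symbol, CD247 (0.735 ± 0.442 CPM), HAPLN1 (39.1 ± 19.1 CPM) and MITF (49.8 ± 12.1 CPM; SD, n = 5), and none of the 6 erythroid markers had one. The defining lymphocyte, erythroid and melanocyte markers were thus not assessed.

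How the valves varied was summarised over the 8683 genes that passed the filter on low counts, 3456 of which had a symbol. The median SD of log2 CPM over these genes was 0.29 in control valves, against 0.26 with serotonin, 0.22 with pergolide and 0.24 with dexfenfluramine. The common biological coefficient of variation of the control valves was 21.4%. Control 3 was the highest or the lowest valve for 48.1% of the genes, Control 4 for 47.3%, Control 1 for 44.7%, and Control 2 and Control 5 for 29.97% and 29.91%.

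A principal component analysis of the 5 control valves put 41.2% of the variance of log2 CPM on the first component. The scores were -20.1, 6.47, 34.5, -28.9 and 8.10 for Control 1 to 5. Control 3 and Control 4 stood at the ends, and Control 1 lay near Control 4. On the second component, with 24.6% of the variance, Control 1 (-27.8) and Control 4 (26.1) stood apart from each other. With 5 valves this is a description, and no test was made. Without Control 3 the first component held 41.6%, with Control 4 farthest from the centre.

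Muscle and mitochondrial genes lay together at the end of the first component opposite to Control 3. All 13 tested genes of the mitochondrial genome, all 33 tested nuclear genes of oxidative phosphorylation and 54 of the 56 tested muscle genes had a negative weight, that is, lower values where the score was high, whereas among all tested genes 51.2% had a positive weight. Of the 68 tested matrix genes 50 had a positive weight (73.5%), with 20 of 25 matrix glycoproteins, 8 of 10 proteoglycans, 10 of 14 collagens and 12 of 19 turnover genes. Ribosomal proteins divided nearly like all genes, with 32 of 53 positive (60.4%), and small nuclear and nucleolar RNAs had 6 of 38 and translation factors 5 of 24 positive. On the first component without Control 3, turned so that Control 4 again had a negative score, all 13 mitochondrial and all 33 nuclear oxidative phosphorylation genes and 52 of the 56 muscle genes had a negative weight. Of the matrix genes 41 of 68 were then positive (60.3%, beside 48.4% of all tested genes), with 7 of 14 collagens. Ribosomal proteins had 36 of 53 positive (67.9%) on that component, small nuclear and nucleolar RNAs 4 of 38 and translation factors 6 of 24.

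The difference between Control 3 and the median of the other control valves gives the sizes. Its median was -1.12 on the log2 scale for the mitochondrial genome, -1.11 for muscle genes and -1.02 for nuclear oxidative phosphorylation genes. It was 0.46 for collagens, 0.31 for proteoglycans, 0.35 for matrix glycoproteins, 0.29 for turnover genes, 0.02 for ribosomal proteins and -0.12 for translation factors, beside 0.02 for all tested genes. Muscle and mitochondrial genes were thus lower by about as much as each other in Control 3, and matrix genes higher by less. The larger share of ribosomal protein reads in Control 3 was not seen after TMM. Without TMM the median of all genes was 0.79, and relative to that value the differences were -1.11 for the mitochondrial genome, -1.09 for muscle, 0.43 for collagens and below 0.01 in size for ribosomal proteins.

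**Figure D3:**
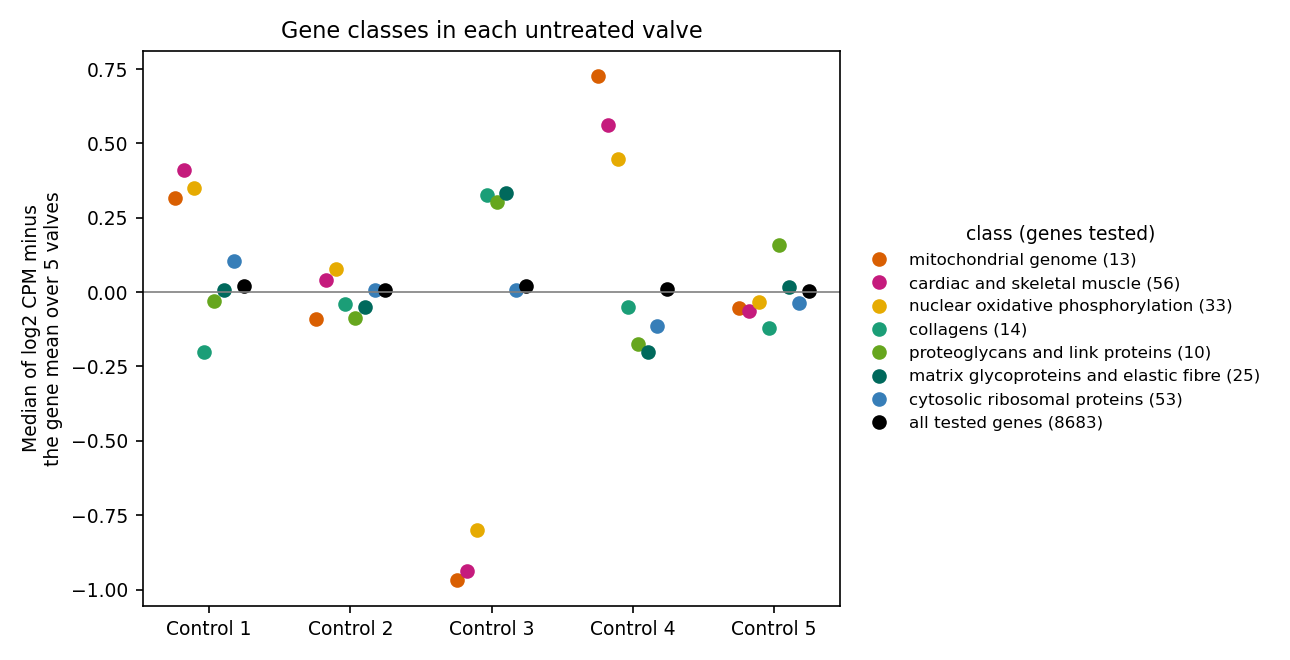
Median, over the tested genes of each class, of log2 CPM minus the gene's mean over the 5 untreated valves; each point is a class in a valve and the legend gives the number of genes. In Control 3 the mitochondrial (-0.97) and muscle (-0.94) classes lie far below 0 and the matrix classes above it, and in Control 4 the mitochondrial (0.73) and muscle (0.56) classes lie above it.

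Genes with the largest positive weights, among those with a symbol and at least 20 CPM, were INHBA, PDK4, EFEMP1, HAPLN1, CDH11, TDRD12, SCN2A, HAS2, NR1D2 and MASP1. INHBA, which encodes a subunit of activin, had 41.4, 50.6, 73.2, 5.58 and 40.9 CPM, and EFEMP1, a fibulin of the matrix, had 463, 579, 675, 123 and 550 CPM. CDH11, a cadherin of mesenchymal cells, had 197, 255, 294, 78.5 and 223 CPM, and HAS2, which makes hyaluronan, had 37.5, 43.8, 55.0, 18.2 and 50.3 CPM. In these 4 genes the low value of Control 4 stood out, and Control 3 was highest. PDK4, a kinase that restrains glucose oxidation, differed from them, with 94.0, 141, 508, 142 and 412 CPM, high in both Control 3 and Control 5. NR1D2, a repressor of the circadian clock, had 102, 234, 269, 143 and 246 CPM. TDRD12, SCN2A and MASP1 had means of 22.7, 29.1 and 24.1 CPM.

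The largest negative weights belonged to CFTR, FHL2, DHRS11, MYOM3, TNNC1, LBH, MYH7B, RYR3, FAT3 and CMYA5. The chloride channel gene CFTR had 93.3, 40.05, 6.31, 102 and 45.7 CPM, the widest range among named genes of at least 20 CPM, with an SD of log2 CPM of 1.58. FHL2, a LIM protein of cardiac muscle, had 206, 138, 24.7, 163 and 84.1 CPM, and TNNC1, the calcium-binding troponin C, had 1978, 1003, 296, 1216 and 794 CPM. Control 3 was lowest for these 3 genes. MYOM3 and CMYA5 of the sarcomere had 84.4 ± 41.2 and 1731 ± 826 CPM, MYH7B, a myosin heavy chain, had 178 ± 89.9 CPM, and DHRS11, LBH and FAT3 had 122 ± 76.3, 29.0 ± 13.9 and 134 ± 87.2 CPM (SD, n = 5). RYR3, a ryanodine receptor, had 30.3, 15.2, 14.2, 78.5 and 24.8 CPM and was set apart by Control 4.

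**Figure D4:**
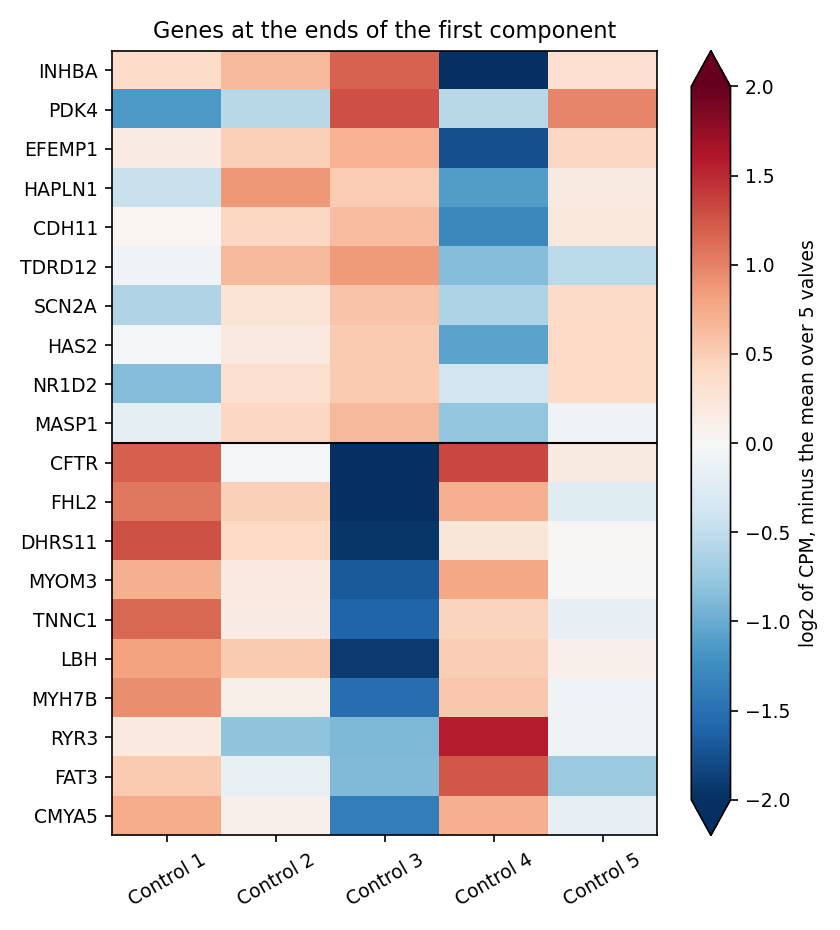
log2 of CPM minus the mean over the 5 untreated valves for the 10 genes of largest weight in each direction on the first component; colours are cut at 2 in each direction. Control 3 is red in the upper block and blue in the lower block, and Control 4 is blue in the upper block.

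By SD of log2 CPM alone, the 10 most variable genes with a symbol and at least 20 CPM were CFTR, INHBA, FHL2, DHRS11, LBH, PDK4, XIRP2, TNNC1, EFEMP1 and MYOM3. All but XIRP2 are also at an end of the first component. XIRP2, which encodes an actin-binding protein of the intercalated disc, had 123, 394, 629, 674 and 652 CPM, low in Control 1 and not in Control 3, unlike the other sarcomere and disc genes given here. The median SD over the 2223 genes of that level was 0.21. Among the least variable were ZFR, CHMP5, MIA3 and PPP2R2A, with SDs of 0.04 each. ZFR, an RNA-binding protein, had 267, 270.1, 260.0, 272 and 256 CPM. CHMP5, MIA3 and PPP2R2A, which act in membrane remodelling, protein export and dephosphorylation, had 88.4 ± 2.23, 195 ± 5.04 and 128 ± 3.31 CPM (SD, n = 5). SPTBN1 and DST, whose shares of reads had differed between Control 3 and Control 4, had an SD of log2 CPM of 0.09 and 0.08 after TMM.

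Which genes varied together was tested over the valves of all groups, because 5 valves are too few for a correlation. A gene was taken for each class: COX1 for the mitochondrial genome, MYH7 for muscle, COL1A2 for matrix and RPL11 for ribosomal proteins, with the leading gene as the fifth. Whether the leading gene is of another class than COX1 is not known here, so that their pair may not be a relation between classes. Deviations of log2 CPM from the mean of the valve's own group were correlated over all 20 valves, and p-values from permutation within groups (100000 resamples, two-sided) were adjusted over the 10 pairs.

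COX1, MYH7 and the leading gene rose and fell together. COX1 and MYH7 had a Pearson r of 0.93 and a Spearman rho of 0.86 (permutation p = 1e-05 for each, the smallest that the resamples can give, adjusted p = 3.3e-05), and lay on the same side of their group mean in 19 of 20 valves. COX1 and the leading gene had r = 0.97 and rho = 0.98, and MYH7 and the leading gene r = 0.87 and rho = 0.85 (permutation p = 1e-05 for each, adjusted p = 3.3e-05), on the same side in 17 and 16 of 20 valves. Without the valves farthest from the median of the first gene, which were control replicate 3 and dexfenfluramine replicate 3, r was 0.85, 0.95 and 0.78. In the 15 treated valves alone, r was 0.95, 0.97 and 0.90 (permutation, adjusted p = 3.3e-05 for each). These 3 relations thus did not rest on the control valves.

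COL1A2 varied in the opposite direction, less closely. With MYH7 it had r = -0.64 and rho = -0.62 (permutation p = 0.0044 and 0.0072, adjusted p = 0.011 and 0.018), and the genes lay on opposite sides in 12 of 20 valves. With COX1 it had r = -0.59 and rho = -0.49 (permutation p = 0.016 and 0.047, adjusted p = 0.031 and 0.078), and with the leading gene r = -0.57 and rho = -0.49 (permutation p = 0.021 and 0.044, adjusted p = 0.035 and 0.078). Only the pair with MYH7 passed an adjusted p of 0.05 on both measures. Without control replicate 3 and dexfenfluramine replicate 3, the farthest in MYH7 and in COX1, r fell in size to -0.44 with MYH7 and -0.34 with COX1. Without control replicate 3 and serotonin replicate 4, the farthest in COL1A2, it was -0.58 with the leading gene. In the treated valves alone, r was -0.57, -0.53 and -0.48, and none of the 3 passed on r (permutation, adjusted p = 0.085, 0.14 and 0.17), while the pair with MYH7 passed on rho (rho = -0.63, permutation, adjusted p = 0.043). Without control replicate 3 alone, r was -0.55, -0.47 and -0.41, and none of the 3 passed on r (permutation, adjusted p = 0.067, 0.19 and 0.24), while the pair with MYH7 again passed on rho (rho = -0.61, permutation, adjusted p = 0.025). Without control replicate 1 or control replicate 2, the pair with the leading gene did not pass on r either (r = -0.55 and -0.57). The negative r of COL1A2 with each of the 3 genes was thus smaller in size without control replicate 3, and the relation with MYH7 passed by rank without it. Without control replicate 4 the 3 pairs passed on both measures (r = -0.65 with MYH7, -0.64 with COX1 and -0.64 with the leading gene), and without TMM they did so too (r = -0.73, -0.83 and -0.85). With library sizes that leave out the leading gene, the pairs with MYH7 and COX1 passed on both measures. For COX1, r was -0.61 and rho -0.55 (permutation, adjusted p = 0.025 and 0.046), and for MYH7 r was -0.67 and rho -0.66 (permutation, adjusted p = 0.0098 and 0.012).

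RPL11 showed no relation that passed the threshold. Its r was -0.29 with COX1, -0.14 with MYH7, 0.08 with COL1A2 and -0.27 with the leading gene, its rho was -0.34, -0.15, 0.04 and -0.29 (permutation p = 0.33, 0.71, 0.76 and 0.33 for r and 0.19, 0.58, 0.89 and 0.25 for rho; adjusted p from 0.42 to 0.76 and from 0.27 to 0.89), and without the 2 valves farthest in the first gene of each pair, which were not the same for all pairs, r was -0.21, 0.03, 0.01 and -0.05. Without TMM all 4 passed, with r = -0.79, -0.54, 0.77 and -0.82.

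**Figure D5:**
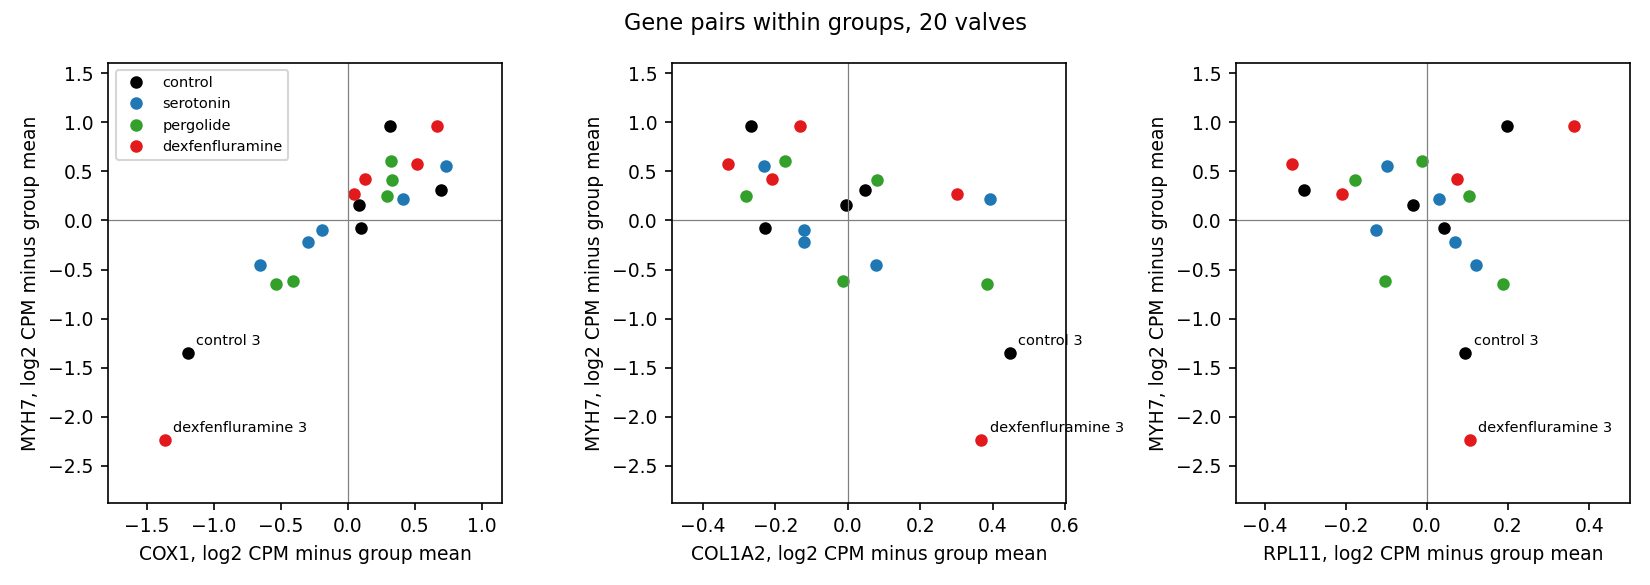
Deviation of log2 CPM from the mean of the valve's own group for MYH7 (vertical) against COX1, COL1A2 and RPL11 (horizontal) in 20 valves coloured by group. Points rise with COX1 (r = 0.93), fall with COL1A2 (r = -0.64) and show no relation past the threshold with RPL11 (r = -0.14), with control replicate 3 and dexfenfluramine replicate 3 lowest in MYH7.

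Over all tested genes, the direction of the first component of the control valves held 9.89% of the within-group variance of the 15 treated valves. The largest share that any direction can hold there was 25.7%, and the 12 free directions of the treated valves held 8.33% each on average. The control direction need not lie among those 12, so that 8.33% is not the share of a direction taken at random. Its share was 6.46% within serotonin, 8.31% within pergolide and 14.5% within dexfenfluramine. Dexfenfluramine replicate 3 deviated farthest along it, by 23.8, on the same side as Control 3. Over genes of at least 20 CPM the treated share was 30.4%, over 3 times that of all genes. With the component taken without Control 3 it was 5.46%, without Control 4 5.71%, and without TMM 1.47%, each below the 9.89% of the main analysis.

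The untreated profile was set against the treated groups at its most abundant genes. The leading gene held 29.6, 39.4, 37.1, 39.1 and 34.5% of the reads with serotonin, 31.4, 34.7, 35.7, 31.2 and 31.7% with pergolide, and 33.3, 27.1, 20.3, 30.4 and 34.3% with dexfenfluramine. Every treated valve was below the control mean, and below each control valve other than Control 3. The differences from control were -4.74, -7.73 and -11.6 percentage points (exact two-sided permutation test, n = 5 against 5, p = 0.24, 0.056 and 0.032, adjusted p over the 3 treatments = 0.24, 0.083 and 0.083), and none passed after adjustment. On CPM after TMM, edgeR's quasi-likelihood test over all genes called the gene lower with dexfenfluramine (-1.23 on the log2 scale, standard error 0.40, adjusted p = 0.026) and not with serotonin or pergolide (adjusted p = 0.68 and 0.12). Without Control 3 the differences in share were -7.79, -10.8 and -14.6 percentage points. The groups then do not overlap, as the values above show. The p-values of these comparisons are given under the processing, and nothing is read from them.

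Of the 20 most abundant genes, edgeR's quasi-likelihood test called 0 with serotonin (1 at an unadjusted p under 0.05, and 0 by DESeq2 and by limma-voom), where 1.19% of all tested genes were called. With pergolide 6 of the 20 were called, all lower, beside 24.8% of all tested genes in either direction and 12.7% lower. They were COX2, CYTB, ND5, ATP8, ND2 and TNNT2. With dexfenfluramine 15 of the 20 were called, all lower, beside 28.9% of all tested genes in either direction and 15.4% lower. The 5 not called with dexfenfluramine were TTN, SPTBN1, VIM, ENSOCUG00000010104 and ENSOCUG00000009017. The genes were ranked by the same control valves that enter the comparisons, and the 3 comparisons share those valves, so that nothing is read from these counts beyond their values.

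TNNT2 had 5325, 2813, 1466, 3570 and 2302 CPM in the control valves. In edgeR it fell by 2.27 on the log2 scale with pergolide (adjusted p = 0.0011, standard error 0.45) and fell by 2.79 with dexfenfluramine (adjusted p = 0.00019, standard error 0.46). CYTB fell by 1.19 (standard error 0.35, adjusted p = 0.015) and 1.77 (standard error 0.35, adjusted p = 0.00091) on the log2 scale. With dexfenfluramine COX1 fell by 1.26 (standard error 0.37, adjusted p = 0.014) and MYH7 by 1.45 (standard error 0.44, adjusted p = 0.018), while TTN missed the threshold (adjusted p = 0.080), at -0.89 on the same scale (standard error 0.37). The number called with pergolide depended on single valves: it was 12 without Control 3, 3 without Control 1, and 2 without Control 4, without pergolide replicate 4 or without pergolide replicate 5. It was 11 by DESeq2. Cardiomyocyte markers, which also varied within the control group, move with these genes, and their part in the differences was not tested.

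The ratio of muscle to matrix reads shows how far the control valves ranged beside the treated ones. It was 11.5, 8.21, 3.20, 15.1 and 7.998 in Control 1 to 5, from 3.52 to 8.25 with serotonin, from 2.42 to 5.88 with pergolide and from 0.549 to 4.36 with dexfenfluramine. Control 3 lay within the range of the pergolide and dexfenfluramine valves and below every serotonin valve, and the other control valves lay above every pergolide and dexfenfluramine valve. No test was made of this ratio.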

How the data were processed

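The authors counted reads per Ensembl gene and deposited the counts without normalization. Their stranded libraries were made from RNA depleted of ribosomal RNA, and the reads were aligned to the rabbit genome oryCun2 with TopHat2 2.1.1 (Picard is also named in the submitters' processing notes) and counted with HTSeq in union mode. The sources used here do not give the release of the annotation, whether counting used strand, or how reads with several matches were treated, so overlapping and antisense genes are uncertain.

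Columns were matched to valves by letter and number, and the 20 valves grouped by their labels. Symbols came from the symbol column of the study's list of changed genes: 2959 identifiers were used as printed, 564 after an extra zero was removed, and 276 were too short to match. Counts were normalized by TMM and tested in edgeR 4.0.16 (R 4.3.3) in 1 fit of all 20 valves after filterByExpr, with Benjamini-Hochberg adjustment and a threshold of 0.05. Alternatives used DESeq2 1.42.0, limma-voom (limma 3.58.1) and the settings named with the results. Log2 CPM used a prior count of 2. Shares, components and permutation tests used Python 3.11.15, numpy 2.4.6, scipy 1.17.1 and pandas 2.3.3, and plots matplotlib 3.10.9. The edgeR script was tested on simulated data.

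Total counts per valve limit precision for genes with few reads, and 5 valves limit it for the rest. Named genes are the 20 with the largest mean share of reads in control valves, the top 3 of each class by CPM, the 10 most and 5 least variable and the 10 of largest weight in each direction on the first component (with a symbol and at least 20 CPM), the genes the study measured by RT-qPCR (COL1A2, MGP, RPL11 and HAPLN1), and cell type markers. Some genes that this rule selects are not reported here. A gene in several classes was counted once, in the first of a fixed order. The valves, classes and lists were chosen with earlier results of these data known.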

Additional observations from a re-analysis of the deposited data

Results flagged for a closer look

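Values of 128 groups of 5 valves were examined for a valve far from the others, by the gap to its nearest neighbour relative to the whole range, and 7 were picked out. Chance alone picks out about 1 in 20 groups, which is close to that number, and the genes are not independent. In Control 3, collagens held 0.554% of the reads, against 0.192 to 0.291% in the other control valves. After TMM the collagens were still highest there, at 4441 CPM against 2915 to 3540 CPM, with a smaller gap relative to the range. Small nuclear and nucleolar RNAs held 0.0562% in Control 3, against 0.0314 to 0.0373% (after TMM it was not high, at 451 CPM against 397 to 586 CPM). MFAP5 had 1664 CPM in Control 3, against 780 to 1035 CPM. In Control 4, VCAN had 1209 CPM, against 2592 to 3027 CPM, RYR3 had 78.5 CPM, against 14.2 to 30.3 CPM, and 5S_rRNA had 3.53 CPM, against 1.35 to 1.93 CPM, which is a handful of reads per valve. In Control 1, MGP had 816 CPM, against 420 to 508 CPM.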

How the results depend on the processing

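The class shares depend on what they are a share of. Of reads outside the leading gene, the named genes of the mitochondrial genome held 16.2%, muscle 16.7%, matrix 2.09%, ribosomal proteins 0.976%, other genes with a symbol 30.01% and other genes without one 32.7%. Of reads of genes with a symbol, the mitochondrial genome held 23.9%, muscle 24.7%, matrix 3.14%, ribosomal proteins 1.46% and other genes 44.8%. When a control valve was left out, the share of all reads ranged from 8.90 to 9.88% for the mitochondrial genome, from 9.39 to 10.3% for muscle, from 1.02 to 1.43% for matrix and from 0.511 to 0.642% for ribosomal proteins. Summed over the valves, the reads gave 9.43, 9.71, 1.25 and 0.579%.

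The first component held 55.6% of the variance over genes of at least 20 CPM, 69.2% without TMM, and between 41.6% and 51.6% when a control valve was left out.

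The leading gene's adjusted p (exact permutation) ranged from 0.016 to 0.46 for serotonin, from 0.016 to 0.17 for pergolide and from 0.016 to 0.17 for dexfenfluramine when a valve was left out. Only those without Control 3 passed, where the groups do not overlap and the p-value is the smallest possible. Control 3 was the only control valve not above every treated valve, so that nothing is read from the p-values without it. With CPM after TMM in place of the share none passed.

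The 103 genes called for serotonin became 53 with DESeq2 size factors, 48 without a filter, 37 with the leading gene removed, 226 by DESeq2, and 0 in a fit of the 2 groups alone (1117 at an unadjusted p under 0.05). They ranged from 0 to 257 when a valve was left out (0 without Control 2, without Control 5 or without serotonin replicate 1, with 1183, 1255 and 1106 at an unadjusted p under 0.05, and 257 without Control 3). The split of 90 higher and 13 lower became 55 and 19 with upper-quartile scaling and 28 and 9 with the leading gene removed. Of the 20 most abundant genes, between 2 and 12 were called for pergolide when a valve was left out, and 11 by DESeq2.

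Nothing in the labels ties a replicate number to a shared animal. Same-numbered valves of 2 groups had deviations correlated at over 0.1 across genes in 6 of 30 pairs (from -0.34 to 0.49). Each valve was also compared with the 5 valves of another group, and its own number was the highest of the 5 in 7 of 60 such comparisons. With the number as a replicate block, 1 gene was called for serotonin, 1988 for pergolide and 2365 for dexfenfluramine, and 0, 4 and 14 of the 20 most abundant genes.

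Pairs of COL1A2 ranged, when a control valve was left out, from r = -0.64 to -0.47 with COX1, from -0.66 to -0.55 with MYH7 and from -0.64 to -0.41 with the leading gene. In treated valves alone these were -0.53, -0.57 and -0.48. Without TMM the RPL11 pairs were -0.79 with COX1, -0.54 with MYH7, 0.77 with COL1A2 and -0.82 with the leading gene. The cause of these changes was not tested.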
